A study of Mus musculus with 15 samples.

Results

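Erythropoietin given before hypoxic ischemia was compared with vehicle given before the same injury, in RNA of the mouse forebrain. The comparison takes 10 of the 15 arrays of the series, chosen by their labels alone: 5 arrays of vehicle and hypoxic ischemia (VEH-HI 6 to 10) and 5 of erythropoietin and hypoxic ischemia (EPO-HI 11 to 15). Both groups had the same injury and differed in the injection, which was vehicle or erythropoietin at 5 U per g into the peritoneum, 1 h before the procedure. The other 5 arrays came from vehicle-injected mice with sham surgery (VEH-Sham), and none came from mice given erythropoietin without injury. For strain, age, sex, the delay from injury to sampling and whether a sample is 1 animal or a pool, the sources used here give nothing. The spread that the p-values below rest on is thus that between samples and may in part be technical.

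In hypoxic ischemia the tissue lacks oxygen and blood flow together. In the immature and adult brain it kills neurons, makes astrocytes reactive and draws in microglia and blood leukocytes. Erythropoietin is the hormone of red blood cell formation. It binds a dimer of its receptor, encoded by Epor, which activates the kinase JAK2 and through it STAT5, the PI3 kinase and AKT pathway and ERK; in neurons and glia this signal is studied as protective against cell death. STAT5 in turn switches on its own inhibitors, such as Cish and the Socs genes, and survival genes such as Pim1 and Bcl2l1.

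The arrays were Affymetrix whole-genome mouse arrays, on which short probes are combined into probe sets. All values here are log2(intensity + 16), and a difference is the EPO-HI mean minus the VEH-HI mean on that scale, with its standard error (SE) from limma. The 45037 probe sets without controls were tested. A gene stands for its brightest probe set with that symbol alone (18193 genes), and 8159 of these genes had a mean of at least 7 over the 10 arrays and are called bright here.

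Erythropoietin and vehicle arrays differed little, and no gene was called. Of the 45037 probe sets, 0 (0.0%) passed a Benjamini-Hochberg adjusted p of 0.05 in limma, and the smallest adjusted p was 0.768. At an unadjusted p under 0.05 there were 2339 probe sets (5.19%), where chance alone gives about 2252. The EPO-HI arrays all lay above the VEH-HI arrays for 169 probe sets (0.375%) and all below for 211 (0.469%). This split turns with the scaling: with array medians made equal the counts were 276 above and 151 below. By genes, 392 were higher (2.15%) and 459 lower (2.52%) at an unadjusted p under 0.05, and the groups did not overlap for 60 higher genes (0.33%) and 72 lower genes (0.396%). The difference was above 0 for 8587 genes (47.2%), and its median was -0.01.

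The sizes were small as well. Among bright genes the median absolute difference was 0.0748, 1 gene in 20 exceeded 0.25, and the largest difference was 0.729 in size. A difference of 0.5 or more either way was reached by 18 of 8159 bright genes (0.221%), 6 higher and 12 lower, and a 2-fold difference (1 on the log2 scale) by 0. A gene's 95% confidence interval was typically 0.229 wide on each side, without adjustment for the number of genes. It lay within -1 and 1 for 8135 bright genes (99.7%) and within -0.5 and 0.5 for 7458 (91.4%). For most bright genes these 5 against 5 arrays therefore bound the difference below 2-fold, but a difference of less than 0.5 in a single gene was often beyond their reach.

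**Figure D1:**
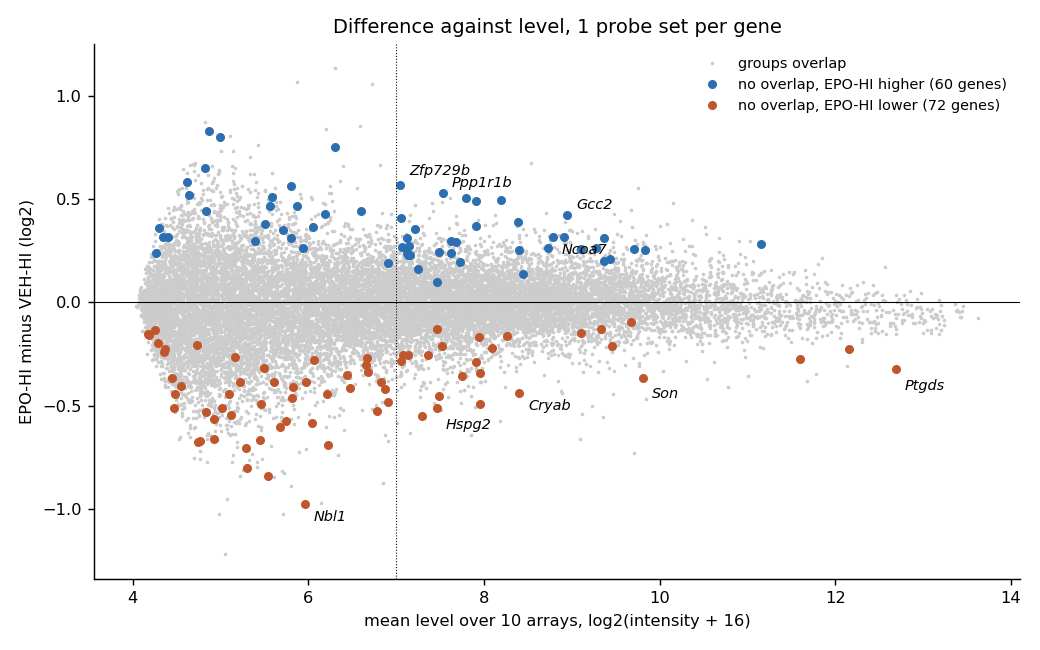
Difference between EPO-HI and VEH-HI (vertical axis, log2) against the mean level over the 10 arrays (horizontal axis, log2(intensity + 16)), each point a gene, with the 60 higher genes without overlap in blue, the 72 lower ones in orange and a dotted line at the mean of 7. Bright genes, to the right of that line, stay within 0.729 of 0, and the wider scatter is at the dim end.

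The 2 groups of arrays had similar ranges in the measures of quality. Median intensity was 40.8 to 44.4 in VEH-HI and 39.2 to 42.5 in EPO-HI, a log2 difference of -0.04 (two-sided exact permutation p = 0.206 over all splits of the arrays, smallest possible 0.00794). The 3' to 5' ratio of the Gapdh control, which is higher where RNA is degraded, was 0.719 to 0.756 in VEH-HI and 0.716 to 0.753 in EPO-HI. Forebrain markers were present on all 10 arrays. Their median level was 11.88 for the synaptic gene Snap25, 10.94 for the cortical neuron gene Neurod6 and 7.47 for the striatal gene Ppp1r1b. The cerebellar genes examined were not all low. The granule cell gene Gabra6 lay at 4.84 to 5.65, En2 at 5.24 to 5.99 and Pcp2 at 5.70 to 7.53, but Cbln1 at 8.48 to 8.78. Whether samples held cerebellar tissue was not tested. VEH-HI 6 had the score farthest from 0 on the first principal component, which held 24.3% of the variance. It was 26.0, against -16.1 (EPO-HI 13) to 6.17 on the other arrays. VEH-HI 9 had it on the second, which held 17.3%, at 23.3 against -9.69 to 5.97 on the other arrays. Xist, the RNA that coats the inactive X chromosome of females, was 4.13 on VEH-HI 6, 7.33 on EPO-HI 12 and 8.89 to 9.65 on the other 8 arrays. On VEH-HI 6 the Y-linked gene Eif2s3y had its highest level, 8.96, against 6.89 to 8.38 on the other 9. The median of a gene list is therefore given below with its lowest and highest value when each of the 10 arrays was left out in turn, and with the array behind it where that moves the median by over 1.5 times.

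Among bright genes, the 10 with the smallest p in each direction had limma adjusted p-values of 0.768 to 0.925, so none passed. The gene with the firmest higher level was Ppp1r1b, which encodes DARPP-32, the dopamine-regulated phosphatase inhibitor of striatal projection neurons. It was 7.09, 7.40, 7.29, 7.29 and 7.25 on VEH-HI 6 to 10 and 7.90, 7.83, 7.86, 7.84 and 7.54 on EPO-HI 11 to 15. The difference was 0.53 (SE 0.10, limma adjusted p = 0.768), a 1.44-fold higher level. The groups do not overlap, but EPO-HI 15 was closer to the vehicle arrays than to the rest of its own group. VEH-Sham 5, the only sham array at the intensity level of the injured arrays, read 7.57, between the means of the groups. The sham arrays at another intensity level, VEH-Sham 1 to 4, read 7.65, 8.02, 8.25 and 8.11, so the place of sham tissue for this gene is not settled.

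Ncoa7, a nuclear receptor coactivator gene that also has a role in resistance to oxidation, was 8.54 to 8.71 on the VEH-HI arrays and 8.84 to 9.01 on the EPO-HI arrays. Its difference was 0.32 (SE 0.07). Gcc2 encodes a golgin, a tethering protein of the Golgi apparatus. It was 8.84, 8.46, 8.96, 8.83 and 8.58 with vehicle and 9.01, 9.18, 9.17, 9.22 and 9.22 with erythropoietin, 0.42 higher (SE 0.10). VEH-HI 8 and EPO-HI 11 were nearly level, so a narrow gap separates these groups. Rab27b, a small GTPase of vesicle release, was 7.35 to 7.96 and 7.98 to 8.23, 0.49 higher (SE 0.12).

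Other genes whose EPO-HI arrays all lay above the VEH-HI arrays were Shoc2, a scaffold of RAS and ERK signalling (0.32, SE 0.08), the semaphorin gene Sema6c (0.50, SE 0.13), Kitl, which encodes stem cell factor, the ligand of the receptor KIT (0.25, SE 0.07), Mfap3l (0.39, SE 0.10) and the zinc finger genes Zfp729b (0.57, SE 0.14) and Zfp37 (0.50, SE 0.15). Kitl lay between 9.58 and 9.78 with vehicle and between 9.91 and 10.03 with erythropoietin. Its tight groups show how a 1.19-fold difference can separate all 10 arrays. Atrx, a chromatin remodeller gene of the X chromosome, was 0.55 higher (SE 0.14, limma adjusted p = 0.805), and all 5 of its other bright probe sets were higher too. Its vehicle arrays spread from 9.01 to 9.97 and reached into the EPO-HI range of 9.89 to 10.17.

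On the lower side, Cryab encodes alpha-B crystallin, a small heat shock protein of glia. It was 8.61, 8.62, 8.58, 8.69 and 8.62 on the VEH-HI arrays and 7.90, 8.51, 8.30, 8.11 and 8.10 on the EPO-HI arrays. The difference was -0.44 (SE 0.10, limma adjusted p = 0.768), and its other bright probe set was lower as well. The vehicle arrays were almost equal here, and the spread was in the erythropoietin group.

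Ptgds, which encodes the prostaglandin D synthase of leptomeninges and oligodendrocytes, was 12.76, 12.87, 12.80, 12.91 and 12.94 with vehicle. With erythropoietin it was 12.59, 12.51, 12.48, 12.63 and 12.46, a difference of -0.32 (SE 0.08). It was among the brightest genes on these arrays, and its other bright probe set was lower too. Son, a splicing cofactor gene, was 9.84 to 10.14 and 9.51 to 9.71, a difference of -0.36 (SE 0.08), but only 1 of its 3 other bright probe sets was lower. Probe sets of Hspg2 disagreed as well: the brightest, for this gene of the basement membrane proteoglycan perlecan, was at -0.51 (SE 0.13), and the mean over all its probe sets at 0.01.

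The other lower genes of this rank were Cyp20a1, an orphan cytochrome P450 gene (-0.49, SE 0.13), Mcrip2 (-0.45, SE 0.12), Zfp777 (-0.55, SE 0.15), Mfsd11 (-0.36, SE 0.10), Rabl2 (-0.49, SE 0.14) and Ttll1. Ttll1 encodes a subunit of a tubulin polyglutamylase and had the largest difference of any bright gene, -0.73 (SE 0.20, limma adjusted p = 0.917). Its groups overlapped: the VEH-HI arrays were all between 10.02 and 10.15, EPO-HI 11 and 12 read 10.06 and 9.86, and EPO-HI 13 to 15 read 9.02, 8.96 and 8.81. EPO-HI 11 was thus within the vehicle range, EPO-HI 12 below it by more than the width of that range, and the other 3 arrays about 2-fold below it.

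**Figure D2:**
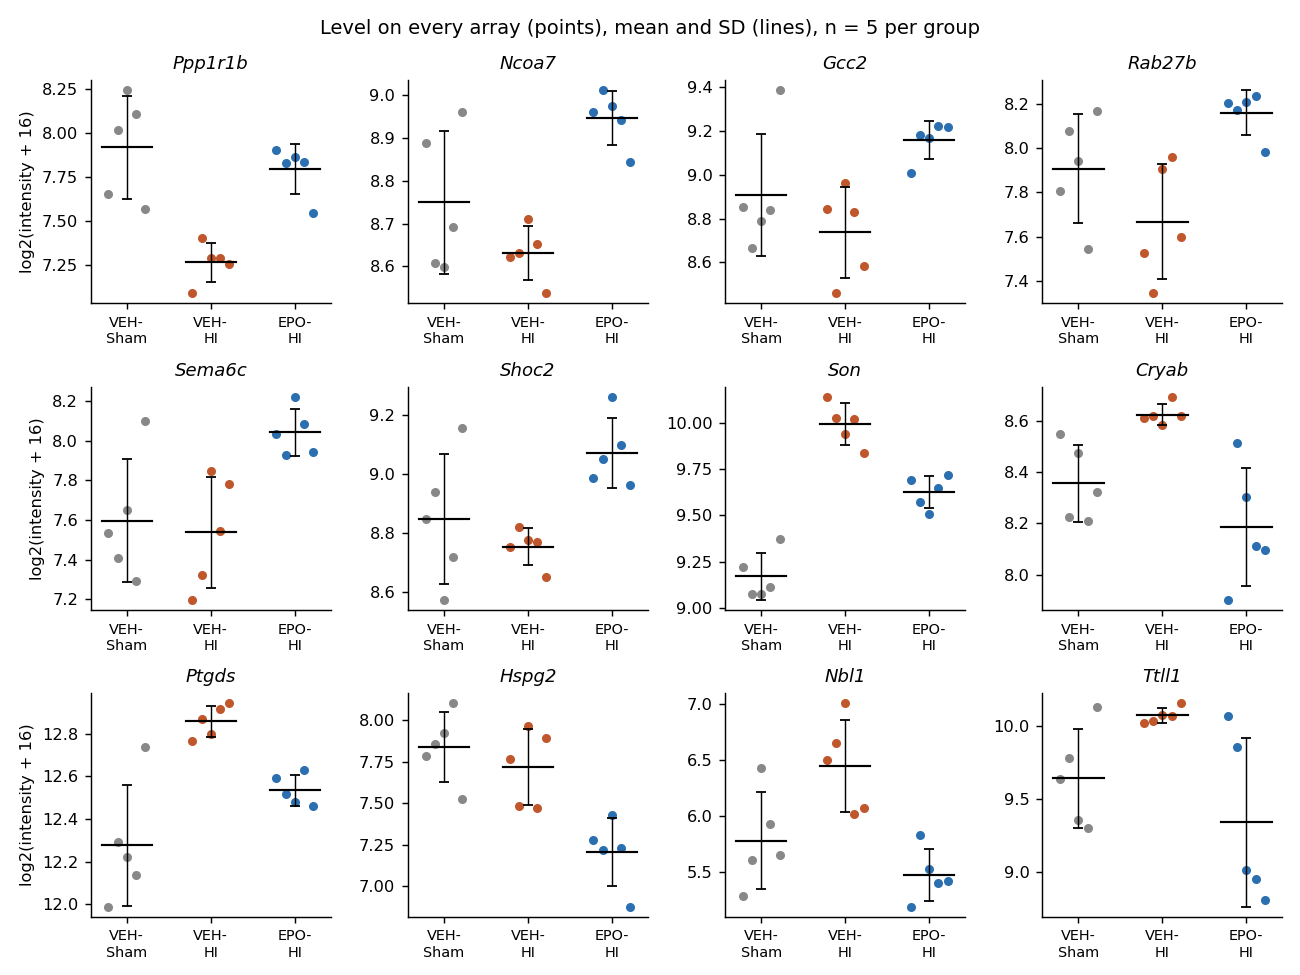
Level of 12 genes (vertical axis, log2(intensity + 16)), each point an array, with horizontal lines for group means and vertical lines for 1 SD (n = 5 per group), VEH-Sham in grey, VEH-HI in orange and EPO-HI in blue. Ppp1r1b and Ncoa7 separate without overlap upward after erythropoietin and Cryab and Ptgds downward, whereas Ttll1 splits within the erythropoietin group. Of the grey points only VEH-Sham 5 is at the intensity level of the injured arrays.

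Most other large differences came from a few arrays. Xist was 0.68 higher (SE 0.83) and -0.34 without VEH-HI 6. S100a8, a calcium-binding protein gene of neutrophils, was 8.07, 7.00, 10.21, 6.70 and 5.38 with vehicle and 6.81, 7.24, 5.80, 5.37 and 8.97 with erythropoietin. Its difference was -0.64 (SE 0.78) and turned to 0.05 without VEH-HI 8. Nudt19, a gene of a coenzyme A hydrolase (-0.66, SE 0.26), Gpaa1, of the complex that attaches GPI anchors (-0.64, SE 0.46), Aopep, an aminopeptidase gene (-0.58, SE 0.26), Srgn, which encodes the granule proteoglycan serglycin (-0.58, SE 0.33), and Marchf1, a ubiquitin ligase gene of antigen-presenting cells (0.51, SE 0.16), all had overlapping groups. No adjusted p in limma was below 0.768 for them.

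Gene lists were used to ask which functional groups shifted. Of 45 lists with 940 distinct measured genes, 12 had a median difference above 0 and 33 below 0, where the median over all genes was -0.01. The summed level of a list, the mean deviation of its members from their own 10-array means, overlapped between the groups for all 45 lists. When the arrays were left out in turn, the median of 22 lists changed sign at least once and that of 23 did not. Against the 2.15% and 2.52% of all genes at an unadjusted p under 0.05, 6 lists had more than 1 in 10 members there in a direction: collagen and meningeal genes, striatal genes, sterol synthesis, interneuron, hypothalamic and myelin genes. For the last 3 this was 2 members each, all of them higher, although the median of the myelin list was -0.06. None of the members named below passed the limma adjusted p, and RNA from bulk tissue cannot tell fewer cells of a type from less RNA per cell.

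**Figure D3:**
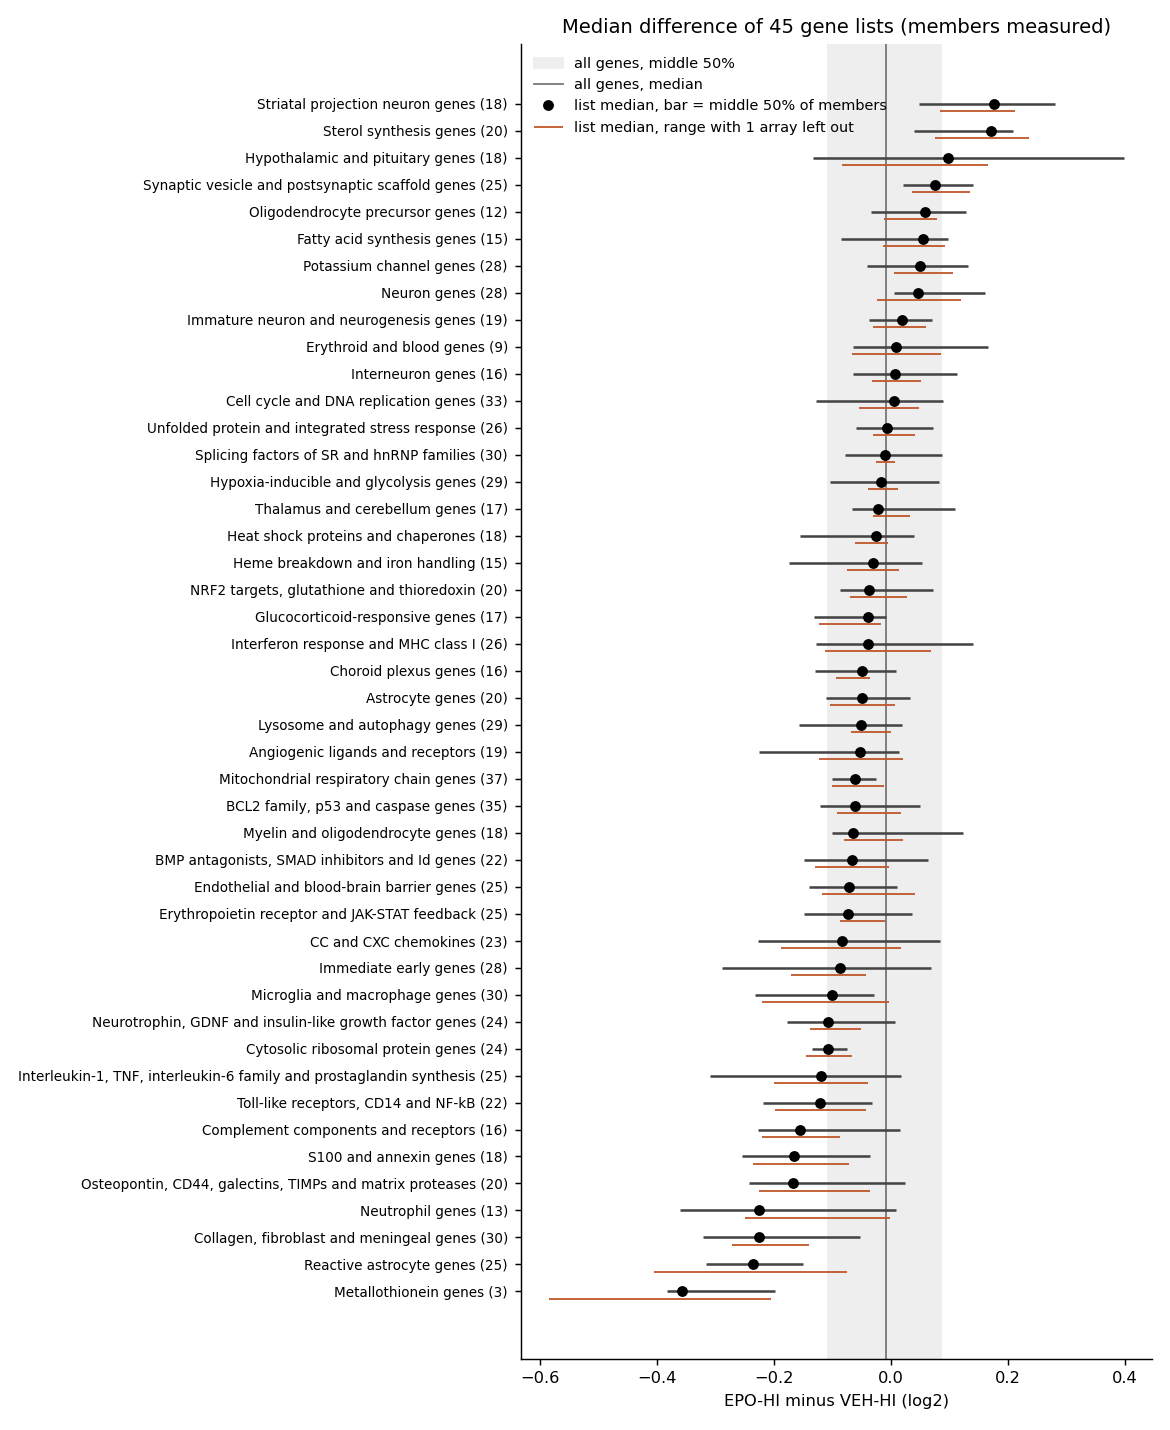
Median difference between EPO-HI and VEH-HI (horizontal axis, log2) for each of the 45 gene lists, with measured members in brackets, the quartiles of its members as a bar, the range of the median with an array left out as a thin orange line and the quartiles of all genes as a grey band. Collagen and reactive astrocyte lists lie at the lower end, at -0.23 and -0.24, beside the 3 metallothioneins, and striatal and sterol lists at the upper end, at 0.18 and 0.17, and the orange line crosses 0 for 22 lists.

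Genes of collagen, fibroblasts and meninges were lower in 25 of 30 members, with a median of -0.23. At an unadjusted p under 0.05, 9 were lower and 1 higher. Crabp2, a retinoic acid carrier of meningeal cells, was 6.77 to 7.14 and 6.52 to 6.76, a difference of -0.39 (SE 0.11) with no overlap.

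Col3a1, the gene of type III collagen, was 9.66, 9.44, 9.24, 9.21 and 8.94 with vehicle and 9.00, 8.90, 8.97, 8.94 and 8.99 with erythropoietin (-0.34, SE 0.11). Here the erythropoietin arrays were nearly equal and VEH-HI 10 lay among them. Postn, which encodes the matrix protein periostin, went against the list at 0.29 (SE 0.12). Igf2, a growth factor of meninges and choroid plexus from another list, was at -0.30 (SE 0.11). Some genes without overlap were chosen after their values were seen. They were Pcolce, an enhancer of procollagen processing (-0.34, SE 0.11), Eln, which encodes elastin (-0.26, SE 0.10), and Apcdd1, a WNT inhibitor (-0.21, SE 0.08). Because of that choice, their lack of overlap adds no evidence for a shift of the collagen list. The summed level of the list was 0.35 on VEH-HI 6, -0.08 to 0.11 on the other VEH-HI arrays and -0.21 to 0.00 on the EPO-HI arrays. The median ranged from -0.27 to -0.14 with an array left out, and the value nearest 0 was without VEH-HI 6, with 26 members below 0 and 6 lower at an unadjusted p under 0.05. Without EPO-HI 13, 4 members were. How much meningeal tissue each sample held was not tested.

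Striatal projection neuron genes were higher in 16 of 18 members, with a median of 0.18 and 4 members at an unadjusted p under 0.05. Ppp1r1b, described above, led the list. Pde10a, the cyclic nucleotide phosphodiesterase of these neurons, was 8.92, 9.69, 9.45, 9.41 and 9.30 with vehicle and 9.70, 9.73, 9.95, 9.86 and 9.51 with erythropoietin (0.40, SE 0.13), and both its other bright probe sets were higher. Penk, the enkephalin precursor of the indirect pathway, was 8.75 to 9.17 and 9.13 to 9.40 (0.27, SE 0.09), an overlap at the edges. The summed level was -0.34 on VEH-HI 6, -0.10 to 0.07 on the other vehicle arrays and -0.02 to 0.17 on the EPO-HI arrays. The median ranged from 0.08 without VEH-HI 6 to 0.21 without VEH-HI 9. VEH-Sham 5 stood at 0.06, between the group means.

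Sterol synthesis genes, which make cholesterol from acetyl-CoA, were higher in 16 of 20 members with a median of 0.17, and 4 members had an unadjusted p under 0.05. With a gene taken as the mean of its probe sets the median was 0.088. Sc5d, an enzyme of the last steps, was 7.48 to 7.94 with vehicle and 7.96 to 8.39 with erythropoietin (0.37, SE 0.11) without overlap. Nsdhl, which acts on sterol C4 groups, was at 0.32 (SE 0.10), and Idi1, the isopentenyl diphosphate isomerase, at 0.45 (SE 0.19). Idi1 was 9.13, 9.34, 10.12, 9.01 and 9.64 with vehicle and 9.45, 10.08, 10.16, 10.04 and 9.76 with erythropoietin, so that VEH-HI 8 lay among the high erythropoietin arrays. The summed level of the list was low on VEH-HI 6 (-0.31), VEH-HI 9 (-0.29) and EPO-HI 11 (-0.15) and between 0.02 and 0.22 on the other 7 arrays. The median ranged from 0.08 without VEH-HI 6, where 2 of 20 members had an unadjusted p under 0.05, to 0.24 without VEH-HI 8. VEH-Sham 5 was higher than any injured array, at 0.56 on the summed level against at most 0.22.

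**Figure D4:**
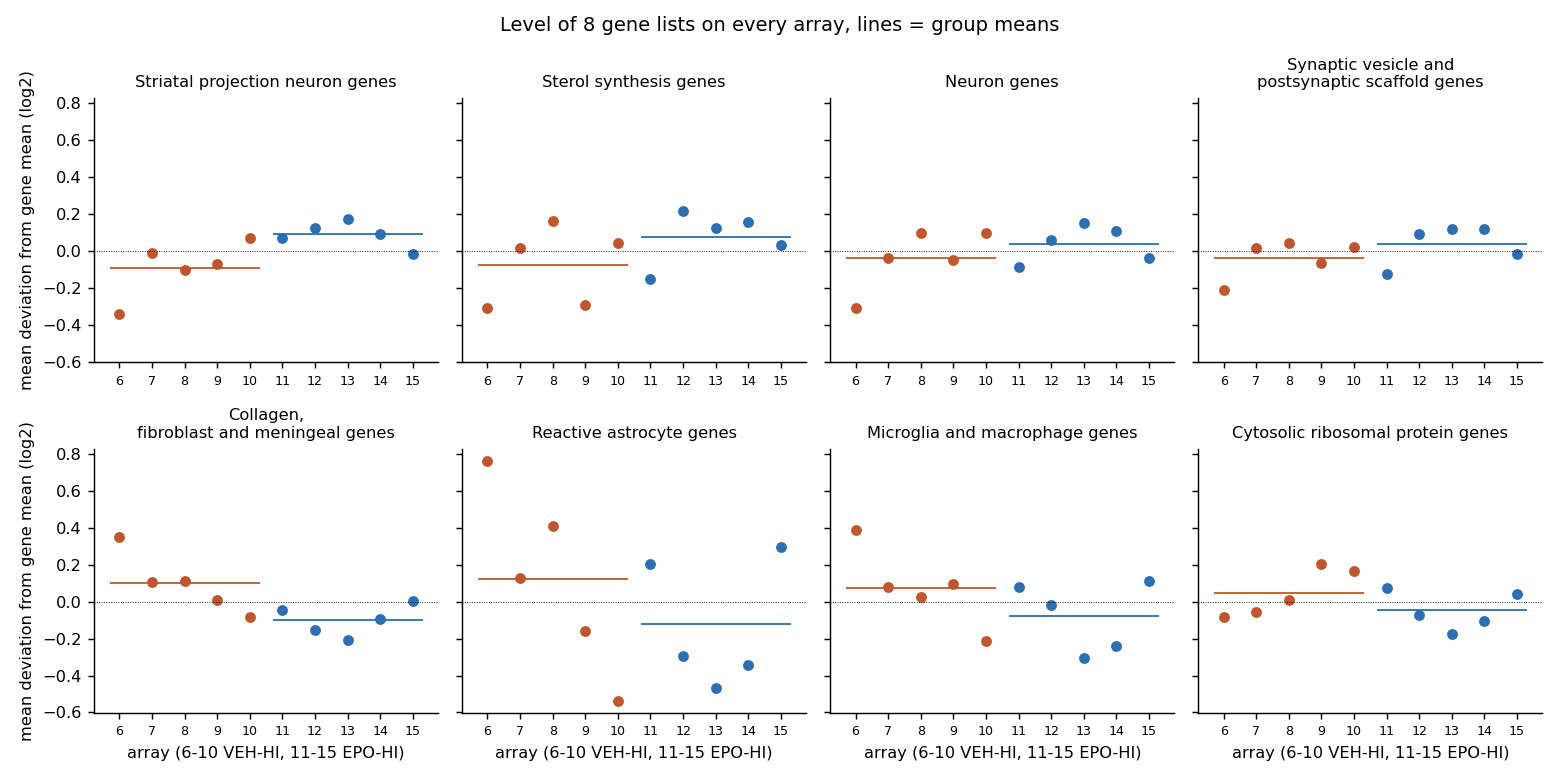
Summed level of 8 gene lists on each array (vertical axis, mean log2 deviation of the members from their 10-array means), each point an array, with lines for group means, VEH-HI 6 to 10 in orange and EPO-HI 11 to 15 in blue. The groups overlap in all panels, and VEH-HI 6 is the extreme vehicle array for the collagen, striatal and reactive astrocyte lists.

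Reactive astrocyte genes were lower in 25 of 25 members by their brightest probe sets, with a median of -0.24. Yet 0 reached an unadjusted p under 0.05, against 2.52% of all genes on the lower side. With a gene taken as the mean of its probe sets, 4 were above 0 and the median was -0.16. The arrays of each group lay far apart. The summed level was 0.76, 0.13, 0.41, -0.16 and -0.54 on VEH-HI 6 to 10 and 0.21, -0.30, -0.47, -0.34 and 0.30 on EPO-HI 11 to 15. Gfap, the filament protein of astrocytes, was 10.75, 10.35, 9.59, 9.61 and 9.49 with vehicle and 10.43, 10.18, 9.51, 9.71 and 9.91 with erythropoietin, a difference of -0.01 (SE 0.23) that was 0.19 without VEH-HI 6. Vim, which encodes vimentin, was at -0.20 (SE 0.16), Nes, which encodes nestin, at -0.45 (SE 0.25) and Sphk1, a sphingosine kinase gene, at -0.32 (SE 0.15). Without VEH-HI 6 the median was -0.08 and 16 of 25 members were below 0, without EPO-HI 13 it was -0.13, and without VEH-HI 10 it was -0.41. Of the markers of resting astrocytes, Glul, the glutamine synthetase gene, was 11.62 to 11.92 with vehicle and 11.31 to 11.57 with erythropoietin (-0.27, SE 0.08) without overlap, and Gjb6, a gap junction gene, was at -0.32 (SE 0.10), while the list's median was -0.05 and ranged from -0.10 to 0.01 with an array left out.

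Inflammatory lists also lay below 0. Microglia and macrophage genes were lower in 26 of 30 members with a median of -0.10, which ranged from -0.22 without VEH-HI 10 to -0.00 without VEH-HI 6. The lysosomal marker Cd68 was 7.29 to 7.68 with vehicle and 6.76 to 7.47 with erythropoietin (-0.42, SE 0.14), and the dim gene Gpnmb, a glycoprotein of lipid-laden macrophages, was at -0.83 (SE 0.24). The median was -0.16 for complement, -0.12 for Toll-like receptor and NF-kB genes, -0.12 for interleukin-1, TNF and interleukin-6 genes and -0.08 for chemokines. Most members of these lists were dim: in the same order 5 of 16, 5 of 22, 6 of 25 and 7 of 23 were bright. With an array left out, complement ranged from -0.22 to -0.09 (without EPO-HI 13) and the Toll-like receptor list from -0.20 (without EPO-HI 15) to -0.04 (without VEH-HI 6). The interleukin list ranged from -0.20 to -0.04 on leaving out those same arrays, and chemokines from -0.19 (without EPO-HI 15) to 0.02 (without EPO-HI 13). Osteopontin and TIMP genes and S100 proteins with annexins both had -0.17. Without EPO-HI 13 these were -0.04 and -0.07, and without VEH-HI 6 they were -0.07 and -0.09.

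Among chemokines, Cxcl2, which attracts neutrophils, was 8.38 on VEH-HI 8 and 4.11 to 5.51 on the other 9 arrays. Its difference of -1.22 (SE 0.55) was -0.54 without that array. The median of the 13 neutrophil genes, only 1 of them bright, was -0.23. It was -0.13 without either VEH-HI 6 or VEH-HI 9, -0.08 without EPO-HI 13 and -0.00 without VEH-HI 8. Of the 3 metallothioneins, metal-binding proteins of stressed astrocytes, Mt1 was at -0.36 (SE 0.27), Mt2 at -0.41 (SE 0.26) and Mt3 at -0.04 (SE 0.13). The median of the list was -0.36, from -0.58 without EPO-HI 15 to -0.20 without VEH-HI 9. Mt2 was 10.44 to 11.38 with vehicle and 10.08 to 11.58 with erythropoietin, and the highest value was in the erythropoietin group, on EPO-HI 15.

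Immediate early genes, which mark recent activity or stress, had a median of -0.09, which ranged from -0.17 without VEH-HI 9 to -0.04 without VEH-HI 6. Fos, the best known of them, was 10.22, 9.07, 9.96, 8.14 and 7.40 on the VEH-HI arrays and 9.05, 7.82, 7.61, 8.08 and 9.81 on the EPO-HI arrays, where VEH-Sham 5 read 7.48. VEH-HI 10 and EPO-HI 13 were near that sham array and the others above it, in both groups. The dim gene Fosb was lower on 4 of 5 EPO-HI arrays, at 4.50 to 4.71 against 5.24 to 5.67 with vehicle, and EPO-HI 15 at 5.26 made the groups overlap (-0.77, SE 0.18).

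The pathway that erythropoietin acts through showed 0 of 25 measured members at an unadjusted p under 0.05. Of all genes 2.15% were higher and 2.52% lower at that level, so 0 in so short a list says little. In the list 9 members were above 0 and the median was -0.07. It ranged from -0.09 to -0.01 (without VEH-HI 6) with an array left out and was -0.03 as the mean of probe sets. Epor itself was dim: 6.11, 6.06, 6.08, 5.51 and 5.90 with vehicle and 6.45, 5.56, 6.25, 5.85 and 6.50 with erythropoietin (0.19, SE 0.20). Jak2, the kinase bound to the receptor, was at 0.07 (SE 0.11) and Stat5a, its transcription factor, at -0.26 (SE 0.20). Among the targets and inhibitors, Cish was at -0.10 (SE 0.10), Socs3 at -0.40 (SE 0.48) and Bcl2l1, which encodes the survival protein BCL-xL, at -0.08 (SE 0.10), or 0.11 as the mean of its probe sets. Pim1, a kinase gene, did not overlap, at 6.19 to 6.61 with vehicle and 4.46 to 6.18 with erythropoietin, but its difference of -0.59 (SE 0.28) was -0.26 without EPO-HI 12. Jak2, Stat5a, Cish, Socs3 and Bcl2l1 are given for their roles, outside the rule for naming genes. Epo was not analysed here.

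BMP antagonists, SMAD inhibitors and Id genes had a median of -0.07 (from -0.13 without VEH-HI 9 to -0.0028 without VEH-HI 7), with 8 of 22 members above 0 and 2 lower at an unadjusted p under 0.05. Nbl1, which encodes a secreted BMP antagonist, was 6.50, 6.66, 7.01, 6.02 and 6.07 on the VEH-HI arrays and 5.19, 5.83, 5.53, 5.40 and 5.42 on the EPO-HI arrays. Its difference of -0.98 (SE 0.20, limma adjusted p = 0.768) came without overlap, in a dim gene. Smad1, a transcription factor of the pathway, was at -0.23.

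Cell death genes divided. Of 35 members of the BCL2, caspase and p53 list, 14 were above 0 and the median was -0.06, which ranged from -0.09 without VEH-HI 10 to 0.02 without VEH-HI 6 and was -0.0048 as the mean of probe sets. Xiap, an inhibitor of caspases (0.24, SE 0.09), and the survival gene Bcl2l2 (0.24, SE 0.10) were higher at an unadjusted p under 0.05, and the death-promoting gene Bad was lower (-0.33, SE 0.14). Xiap was 9.27 to 9.59 with vehicle and 9.52 to 9.86 with erythropoietin. The groups overlapped for all 3 genes, which were the list's members of lowest p, and none passed the adjusted p. At that level stood 2 of 35 members on the higher side and 1 on the lower, against 2.15% and 2.52% of all genes.

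Neuron and synapse lists had medians slightly above 0. General neuron genes were higher in 22 of 28 members with a median of 0.05, which ranged from -0.02 without VEH-HI 6, with 13 above 0, to 0.12 without EPO-HI 11. Synaptic vesicle and scaffold genes were higher in 20 of 25 (median 0.07, from 0.04 without EPO-HI 12 to 0.14 without EPO-HI 11). Potassium channel genes were higher in 19 of 28 (median 0.05), but in 15 of 28 without VEH-HI 6, where the median was 0.0054. Camk2a, the kinase of excitatory synapses, was 8.33 to 9.16 with vehicle and 8.94 to 9.30 with erythropoietin (0.39, SE 0.13), whereas Rab3a, a GTPase of synaptic vesicles, was at -0.22 (SE 0.10). The GABA synthesis genes Gad1 and Gad2 were at 0.18 and 0.34, in an interneuron list with a median of 0.01. That median ranged from -0.03 without VEH-HI 9 to 0.05 without EPO-HI 14.

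Genes of protein synthesis and energy were mostly below 0 by a little. Cytosolic ribosomal protein genes were below 0 in 22 of 24 (median -0.11) and mitochondrial respiratory chain genes in 33 of 37 (median -0.06). VEH-HI 9 had the highest summed level of both lists, 0.20 and 0.23. Without that array the medians were -0.07 and -0.01, and 23 of 37 respiratory chain genes were below 0. With equal array medians the lists had medians of -0.06 and -0.02, and after quantile normalization of -0.05 and -0.02. At an unadjusted p under 0.05 they had 0 and 1 members, against 2.15% of all genes higher and 2.52% lower. The 1 respiratory chain member was Atp5o, an ATP synthase subunit gene. It was 12.18 to 12.44 with vehicle and 11.99 to 12.11 with erythropoietin (-0.22, SE 0.08).

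The remaining lists lay near 0. Neurotrophins with insulin-like growth factors had a median of -0.11, which was -0.05 without EPO-HI 12 and -0.02 as the mean of probe sets. Endothelium had -0.07, from -0.12 without EPO-HI 11 to 0.04 without VEH-HI 6. Myelin genes (-0.06), angiogenic factors (-0.05) and lysosome and autophagy genes (-0.05) were at 0.02, 0.02 and 0.00 without VEH-HI 6. Choroid plexus, with 2 of 16 members bright, had -0.05, from -0.09 without EPO-HI 11 to -0.04. As the mean of probe sets its median was -0.105. Medians from -0.04 to 0.02 were those of interferon response (-0.04), glucocorticoid response (-0.04), NRF2 targets (-0.04), heme and iron (-0.03), heat shock (-0.03), thalamic and cerebellar genes (-0.02), hypoxia-inducible genes (-0.02), splicing factors (-0.01), unfolded protein response (-0.01), cell cycle (0.00), erythroid genes (0.01) and immature neurons (0.02). With an array left out, these medians reached at the farthest -0.12 (glucocorticoid response, without EPO-HI 15) and 0.09 (erythroid genes, without EPO-HI 13). Interferon response ranged from -0.11 to 0.07. Fatty acid synthesis (0.05) and oligodendrocyte precursors (0.06) were at -0.01 and -0.01 without VEH-HI 9. Hypothalamic and pituitary genes had a median of 0.10, which was -0.08 with 6 of 18 above 0 without EPO-HI 15 and 0.17 without EPO-HI 13. Of the 9 erythroid genes measured, which mark the cells that erythropoietin acts on in blood-forming tissue, 5 were above 0.

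The EPO-HI arrays were more alike than the VEH-HI arrays. Pairs correlated at 0.974 to 0.987 within EPO-HI (median 0.980), 0.960 to 0.978 within VEH-HI (median 0.973) and 0.958 to 0.982 between the groups (median 0.978), over 13691 bright probe sets. The median SD of a bright gene was 0.146 in EPO-HI and 0.177 in VEH-HI, and 5240 of 8159 genes (64.2%) had the larger SD with vehicle. Without VEH-HI 6 the vehicle SD was 0.168, and without VEH-HI 9 it was 0.161. This is a description, since genes on an array are not independent. With vehicle the bright genes with the widest spread were Xist (SD 2.29), S100a8 (SD 1.80), Tgfbi, a matrix gene of macrophages (1.25), and Fos (1.19). With erythropoietin they were S100a8 (1.41), Gpaa1 (1.16), the lysozyme gene Lyz1 (0.99) and Tmem14c, a mitochondrial heme synthesis gene (0.94).

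**Figure D5:**
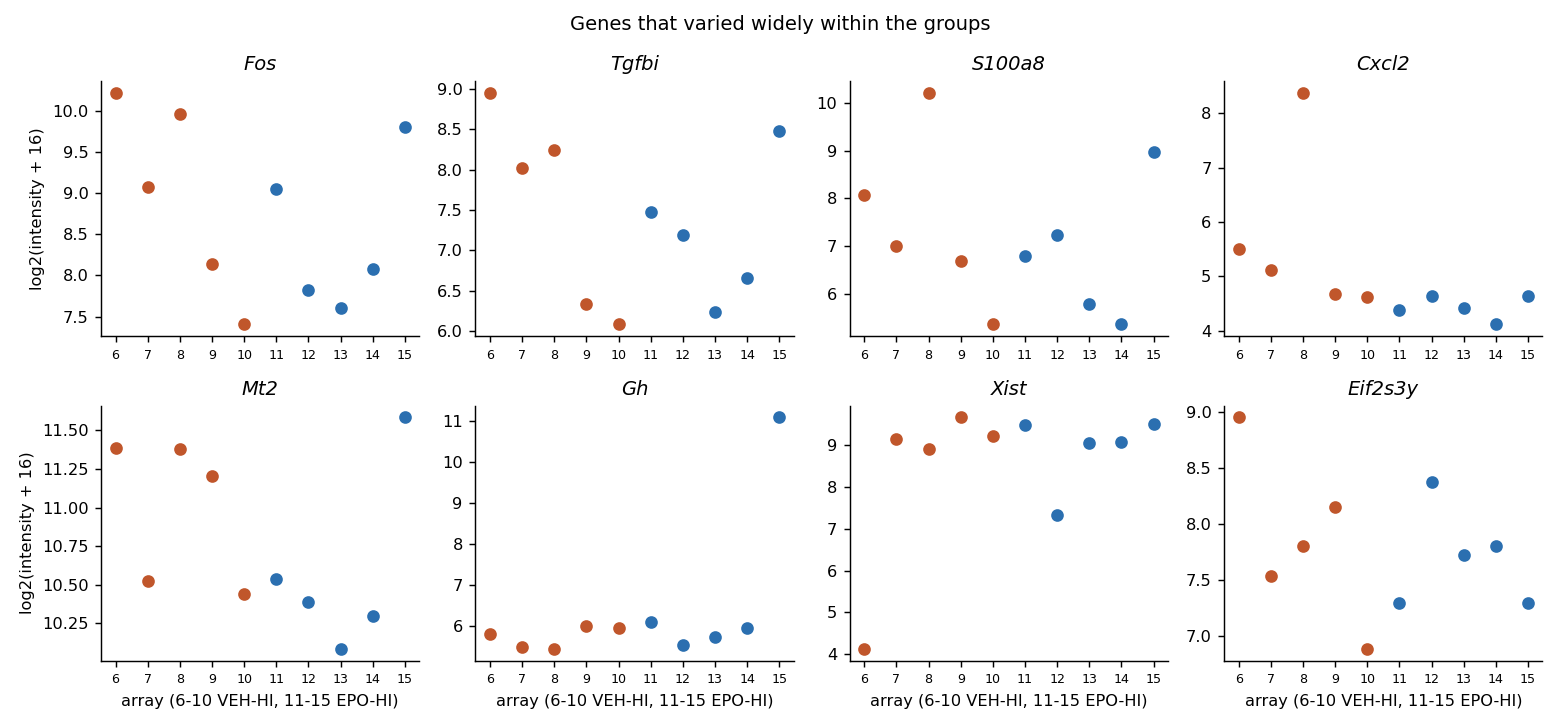
Level of 8 genes on each array (vertical axis, log2(intensity + 16)), each point an array, with VEH-HI 6 to 10 in orange and EPO-HI 11 to 15 in blue. Fos, Tgfbi and S100a8 range widely in both groups, Cxcl2 is high on VEH-HI 8 alone, Gh, the growth hormone gene of the pituitary, on EPO-HI 15 alone (11.09), and Xist is low on VEH-HI 6 (4.13).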

How the data were processed

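The authors deposited linear intensities for each probe set; the software that summarised them stays unnamed in the sources used here. Every array had a mean of 150 after trimming 2% of probe sets at each end, so no further scaling was done. Total RNA was measured, per the labels, and 64 control probe sets were left out. Columns were matched to samples by name, with 0 left over. Gene names came from the platform annotation: 34945 probe sets had 1 symbol, of which 34741 matched by gene number to the GRCm38.p6 gene table, and 0 symbols differed.

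Intensities were converted to log2(intensity + 16), a pseudocount that understates differences of dim genes. The 10 arrays entered a 2-group model in limma 3.58.1 under R 4.3.3 (lmFit, then eBayes with trend), with two-sided tests over 45037 probe sets and Benjamini-Hochberg adjustment at 0.05. The probe set of a gene was the one with the highest mean over the 10 arrays. Other steps used Python 3.11.15 and matplotlib 3.10.9. The fit was tested on simulated data with 200 planted differences in bright probe sets, and made 8 false calls among 45037 probe sets. It recovered 61.2% of planted differences of 0.5, 94% of those of 1 and 100% of those of 2. The simulated noise was independent between probe sets, unlike that of real arrays, so these shares need not hold for the data.

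Genes were named by rule: with a mean of at least 7 (intensity 112), the 10 with the smallest p, the 6 largest differences and the 6 largest without overlap in each direction, and the 4 with the largest SD in each group; the 3 members of lowest p in every list; and Epor. Genes named outside the rule are Mt1, Mt2, Mt3, Gfap, Vim, Cish, Socs3, Jak2, Stat5a, Bcl2l1, Postn, Gh, Pcolce, Eln, Apcdd1 and the quality markers, chosen for their role or after their values were seen. The comparison, its members and the 45 lists were chosen with earlier results of these data known, 43 measured genes stand in more than 1 list, and forebrain itself expresses many of the marker genes. The alternatives were other pseudocounts, scalings, filters, variance models and gene summaries, all 15 arrays in the fit, and leaving out each array.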

Additional observations from a re-analysis of the deposited data

Results flagged for a closer look

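Single arrays far from the other 4 of their group were found in 20 of the 288 sets of 5 values examined (6.94%); chance gives about 1 in 20. EPO-HI 15 held 6 of them. It read 11.09 for Gh, the growth hormone gene (nearest array of its group 6.09), and 0.98 for the summed level of hypothalamic and pituitary genes (nearest -0.08). It was also apart for Ppp1r1b at 7.54 (nearest 7.83), Rab27b at 7.98 (8.17), Fosb at 5.26 (4.71) and Srgn at 8.67 (7.87). EPO-HI 12 read 4.46 for Pim1 (nearest 5.87), 7.49 for Cish (7.33) and 7.33 for Xist (9.05). EPO-HI 11 was low for Gcc2 at 9.01 (nearest 9.17) and for the summed level of fatty acid synthesis genes at -0.14 (0.02). EPO-HI 13 read 8.13 for Marchf1 (nearest 7.87) and 9.16 for S100a10 (9.48), and EPO-HI 14 read 8.39 for Sc5d (8.08).

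In the vehicle group, VEH-HI 6 read 4.13 for Xist (nearest 8.89) and 9.83 for Apcdd1 (9.54). VEH-HI 8 read 8.38 for Cxcl2 (nearest 5.51), and VEH-HI 9 read 7.33 for Rabl2 (7.71). VEH-HI 10 read 6.65 for Ddit3, a stress response gene (nearest 7.06), and 4.97 for Nkx2-1, a transcription factor of the ventral forebrain (4.28).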

How the results depend on the processing

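No probe set passed an adjusted p of 0.05 in limma under any of the 19 alternatives, including all 10 that left out an array (lowest and highest count 0 and 0). The smallest adjusted p ranged from 0.149 (without VEH-HI 10) to 0.98 (without VEH-HI 7). Unadjusted p-values under 0.05 numbered 1322 and lower probe sets without overlap 106 among the brightest 60%, where fewer probe sets were tested. With equal array medians 276 probe sets were higher without overlap, since the EPO-HI medians were the lower ones. With an array left out, 271 to 388 were higher and 367 to 479 lower without overlap, as fewer arrays had to separate, 1941 to 2610 had an unadjusted p under 0.05, and the difference in log2 array median was -0.06 to -0.03. Of 98 genes followed, 7 turned sign under a setting. As the mean of their probe sets Hspg2 was at 0.0098 and Bcl2l1 at 0.11. With equal array medians Mt3 was at 0.0049 and Gfap at 0.030. With an array left out, Gfap ranged from -0.13 to 0.19 (above 0 without VEH-HI 6 or 7 or EPO-HI 13 or 14), Mt3 from -0.16 to 0.037 (above 0 without VEH-HI 6 or EPO-HI 13), S100a8 from -1.17 to 0.049 (without VEH-HI 8), Tgfbi from -0.68 to 0.037 (without VEH-HI 6) and Xist from -0.34 (without VEH-HI 6) to 1.06. The cause was not tested. Of the 45 lists 24 had a median that changed sign under a setting, and 0 of the 9 with a median of at least 0.15 in size did. No paired analysis was possible because replicate numbers run through the whole series and no number is shared between the groups. With 5 arrays per group and dim genes near the background, small differences in single genes were not detectable.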

Other observations

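Xist and transcripts of the Y chromosome were measured on the same arrays. On the 9 arrays other than VEH-HI 6, Xist was 7.33 to 9.65 and Eif2s3y 6.89 to 8.38. The arrays with the lowest Xist, VEH-HI 6 and EPO-HI 12, had the highest Eif2s3y, at 8.96 and 8.38. The dimmer Y-linked gene Kdm5d was highest on the same arrays, at 6.62 and 6.50, and so was Uty, at 7.26 and 7.06. The labels do not give the sex of the mice or say whether samples hold RNA of several animals, and the share of male and female tissue per sample was not tested.

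Gh was 5.44 to 6.09 on 9 arrays and 11.09 on EPO-HI 15, and the highest VEH-Sham array read 10.26. Its EPO-HI mean was 1.13 higher (SE 0.81), a difference that rests on that array. Fshb, a gonadotropin subunit gene, was 0.42 higher, and Nkx2-1 0.49 higher, both dim.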
